A study of Homo sapiens with 4 samples.

Results

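Proteins made at the endoplasmic reticulum (ER) reach the Golgi apparatus in small vesicles, and the genes of this shuttle were followed here after loss of the transcription cofactor LDB1. The list held 55 genes chosen by name from the deposited expression table, which lists 28412 genes, and each of the 55 had a row. The members were grouped by role into the COPI coat, the ARF GTPases with their regulators, the COPII coat, the cargo receptors, the Golgi matrix with its tethers and RAB1, and the SNAREs. RNA-seq had been performed on 4 libraries of the human leukemia line labelled NB4, which is known as an acute promyelocytic leukemia line. In 2 libraries the cells carried a control short hairpin RNA (sh-NC, genotype control), and in the other 2 a short hairpin RNA against LDB1 (sh-LDB1). Hairpins were delivered in the lentiviral vector Plko.1 and infected cells were selected with puromycin, so both groups carried a vector and a selection. The methods list 3 hairpins against human LDB1, and which of them was sequenced is not given in the sources used here. Nothing in the labels says whether the replicates came from separate infections or cultures, so p-values measure only the spread between these libraries, which may be technical.

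COPII is the coat that buds vesicles from the ER. The GTPase SAR1, switched on by PREB, recruits the inner layer of SEC23 and SEC24, in which SEC24 binds the cargo, and then the outer cage of SEC13 and SEC31. COPI is the coat of vesicles that bring proteins and membrane back from the Golgi to the ER and between Golgi cisternae. It is a complex of several subunits recruited by ARF GTPases, which are loaded with GTP by GBF1 and switched off by the ARFGAP proteins. Tethers such as USO1 and GOLGA2 catch arriving vesicles and SNAREs fuse them with the target membrane. Secretory cells are known to raise many of these genes together, partly through membrane-bound transcription factors of the ATF6 and CREB3 families.

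Expression was measured in FPKM, read fragments per unit of gene length and of library size, and the libraries held 14520592 to 16852935 reads recovered from these values. LDB1 itself was at 135.1 and 120.1 FPKM with sh-NC against 10.2 and 9.47 FPKM with sh-LDB1, that is 7.73% of the control mean. Markers did not match the label well. ELANE, the neutrophil elastase gene of promyelocytes, was at 0 in both sh-NC libraries, whereas the embryonic globin gene HBZ was at 1543 and 1600 FPKM there. The summed level of 12 erythroid markers went from 3999 and 4163 to 388.1 and 351.3 FPKM after the knockdown. In the test described below 12 of 12 were lower, against 37.4% of all genes tested. The summed level of the 8 promyelocytic and granulocytic markers with a row went from 12.7 and 11.7 to 46.3 and 42.8 FPKM. Of the 7 tested, 5 were higher, against 29.9% of all genes tested. ITGAM, among the 5, was at 0.022 and 0.060 FPKM with sh-NC and was tested only because of its level with sh-LDB1 (4.89 and 4.94 FPKM). CEBPE went down, from 1.55 and 1.27 to 0.924 and 0.340 FPKM, and did not pass the test (limma adjusted p 0.0810). Megakaryocytic markers summed to between 2.86 and 3.91 FPKM in all libraries, and lymphoid markers, almost entirely CD3D, went from 24.1 and 21.3 to 44.9 and 47.7 FPKM. The part of these shifts in the results below was not tested, and in bulk RNA a change in the mix of cells cannot be told apart from a change in RNA per cell.

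A promoter sequence was then looked for in the members. RefSeq promoter windows on GRCh38.p14, from 250 bases before to 50 bases after the annotated start, were given for 47 of the 55 members. The core TGACGTGG, known to be bound by ATF6 and CREB3 family factors, was searched on both strands. It was found for 10 of these 47 members (21.3%), against 253 of all 27305 genes with a window (0.927%). A gene could have several windows, 35116 in all. Of the genes tested below that had a window, 103 held the core and 8293 did not. The 10 genes were ARF1, COPA, COPB1, COPB2, GBF1, KDELR3, SEC16A, SEC23A, SEC24A and STX5. Among them were 3 subunit genes of COPI and the COPII genes SEC16A, SEC23A and SEC24A, and COPB2 held the core at 2 places. The following stretches are shown because they carry the core before the start of the gene, or across it in SEC23A. They read 5′ to 3′ along the strand of the gene, with the core in capitals, written CCACGTCA where it lies on the opposite strand.

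KDELR3, chr22:38468010-38468095, plus strand: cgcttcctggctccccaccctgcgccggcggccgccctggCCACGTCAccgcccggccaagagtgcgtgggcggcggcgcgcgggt
SEC24A, chr5:134648566-134648653, plus strand: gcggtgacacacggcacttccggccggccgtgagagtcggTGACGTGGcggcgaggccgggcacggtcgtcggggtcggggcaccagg
SEC23A, chr14:39103221-39103250, minus strand: tcccctcctctTGACGTGGcagaggcggcg
COPB2, chr3:139389796-139389883, minus strand: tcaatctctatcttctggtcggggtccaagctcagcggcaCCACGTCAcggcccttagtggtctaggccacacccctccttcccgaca
COPB1, chr11:14499812-14499899, minus strand: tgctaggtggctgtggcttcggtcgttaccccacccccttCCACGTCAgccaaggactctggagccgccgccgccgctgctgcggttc
STX5, chr11:62832052-62832107, minus strand: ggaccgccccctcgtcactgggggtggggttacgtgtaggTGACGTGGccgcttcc
ARF1, chr1:228082652-228082707, plus strand: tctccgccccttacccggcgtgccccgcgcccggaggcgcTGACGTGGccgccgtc

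The first base of the core lay 16 bases before the start in both ARF1 and STX5, and 179 bases before it in SEC24A. The other matches, in COPA, GBF1, SEC16A and at the second place in COPB2, lay past the start. The full bipartite ER stress element was found for 0 of the 47 members and for 25 of the 27305 genes (0.0916%). The E-box CACGTG was found for 5 members (10.6%, against 8.77% of all genes with a window). The GATA motif AGATAA was found for 3 members (6.38%, against 12.4%). Many of those genes were not tested, whereas all members were, so these shares are not a like-for-like background. Of the tested genes with a window, 1104 held the E-box and 7292 did not. The GATA motif was held by 595 of them and not by 7801. No match of one motif in a member window overlapped a match of another. A match is a run of letters and not a measured binding site.

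Across the list, the sh-LDB1 libraries held more of these transcripts. The list had been chosen with earlier results of these data known, so the shares below describe it and are no independent support. All 55 members passed the filter of a mean of at least 1 FPKM, with 161 to 59665 reads behind a value. By limma on log2(FPKM + 1) with Benjamini-Hochberg adjustment over 13300 genes, 45 of the 55 members (81.8%) were higher at an adjusted p-value below 0.05, against 29.9% of all genes tested, and 5 (9.09%) were lower, against 37.4%. Called in either direction were 67.4% of all genes. With the added condition of a fold change above 2 or below 0.5, taken on the log2(FPKM + 1) scale, 25 members (45.5%) were higher, against 9.50% of all genes, and 1 was lower, against 10.3%. All values in sh-LDB1 lay above those in sh-NC for 48 members, against 38.3% of all genes, and below for 6, against 46.3% (84.6% of all genes in either direction). Only SEC24B overlapped. The median log2 fold change was 0.98 over the members and -0.08 over all genes tested. Summed over the members, the level was 1697 FPKM in each control library, against 3846 and 3851 FPKM after the knockdown, 2.27 times as much. The sum over all genes was not equal, at 319063 and 319687 FPKM with sh-NC against 285208 and 281397 FPKM with sh-LDB1. The members made up 0.531% of it with sh-NC and 1.36% with sh-LDB1.

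**Figure D1:**
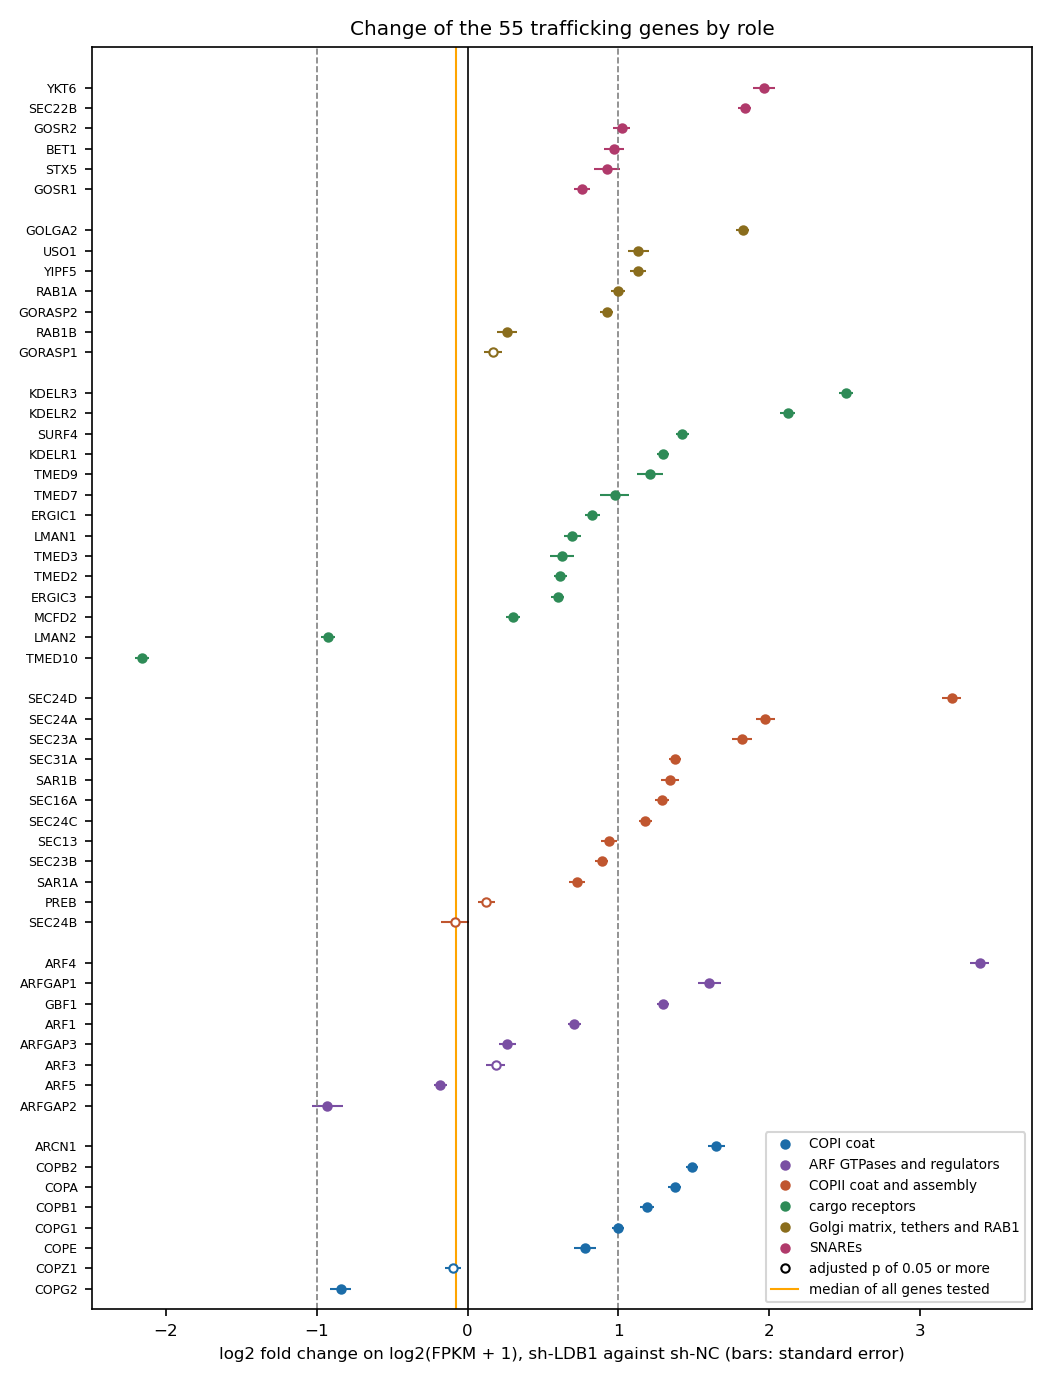
Each point is the log2 fold change of 1 member between 2 sh-LDB1 and 2 sh-NC libraries on the log2(FPKM + 1) scale, with the standard error from limma as a bar and colour for the role. Open points did not pass an adjusted p-value of 0.05, dashed lines mark a 2-fold change, and the orange line is the median of all genes tested. Most points lie to the right, with ARF4 at 3.40 and SEC24D at 3.21 farthest out and TMED10 alone beyond the 2-fold line on the left at -2.16.

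Of the COPI coat, 6 of the 8 subunit genes rose, 1 fell and 1 did not pass the test. ARCN1, the delta subunit, was at 45.7 and 48.8 FPKM with sh-NC against 155.1 and 145.8 FPKM with sh-LDB1 (log2 fold change 1.65, SE 0.0570, limma adjusted p 0.000111). COPB2, the beta-prime subunit, went from 24.8 and 24.3 to 71.7 and 70.0 FPKM, and COPA, the alpha subunit that forms the outer layer with it, from 40.1 and 42.1 to 109.2 and 106.9 FPKM. COPB1, the beta subunit, was at 22.2 and 23.0 FPKM with sh-NC against 51.7 and 54.0 FPKM with sh-LDB1. These 4 genes passed the 2-fold rule, and their replicates lay much closer to each other than the groups did. COPE, the epsilon subunit, rose by less, from 43.4 and 38.9 to 68.7 and 73.7 FPKM. COPZ1, the zeta subunit, was at 55.5 and 60.1 FPKM with sh-NC against 53.5 and 54.3 FPKM with sh-LDB1, with a log2 fold change of -0.10 and an adjusted p-value of 0.168 by limma. The subunit gene that fell was COPG2, described next, so the direction differed within the coat. The summed level of the 8 genes was 289.8 ± 3.15 FPKM with sh-NC against 597.2 ± 2.40 FPKM with sh-LDB1 (SD, n = 2).

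The gamma subunit exists in alternative forms, and their genes went in opposite directions. COPG1 went from 41.0 and 39.98 to 81.5 and 82.3 FPKM, 2.02 times the control mean. On the log2(FPKM + 1) scale it stood just under the 2-fold line, at a log2 fold change of 1.00. COPG2 went from 14.9 and 14.8 to 7.36 and 8.37 FPKM (log2 fold change -0.84, SE 0.0723, limma adjusted p 0.000777). COPG2 made up 26.9% ± 0.281 of the gamma FPKM in sh-NC and 8.75% ± 0.670 in sh-LDB1 (SD, n = 2). As COPG2 fell while the other gamma gene rose, both the level and the share of COPG2 were lower after the knockdown.

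ARF4 had the largest change of the 55 members on the log2(FPKM + 1) scale, whereas SEC24D led with a pseudocount of 0.1 (3.92 against 3.43) and in ratio of FPKM. ARF4 encodes a small GTPase of the early secretory pathway that works with ARF1 in recruiting COPI, and the gene lies on chr3:57571363-57598220 of hg38 on the minus strand. It was at 35.0 and 38.8 FPKM with sh-NC against 402.8 and 393.4 FPKM with sh-LDB1, 10.8 times the control mean (log2 fold change 3.40, SE 0.0623, limma adjusted p 6.77e-05). ARF1, the most abundant member in sh-NC at 198.7 and 198.2 FPKM, reached 318.6 and 331.0 FPKM (log2 fold change 0.71). In the sh-LDB1 libraries ARF4 thus stood above ARF1, while in sh-NC it had been well below. ARF3 was at 31.7 and 28.8 FPKM with sh-NC against 33.8 and 35.3 FPKM with sh-LDB1, with an adjusted p-value of 0.0541 by limma, which was 0.0148 with total reads. ARF5 went from 50.7 and 52.8 to 45.5 and 45.6 FPKM (log2 fold change -0.18, limma adjusted p 0.0184). This fall was small and lost its call under scaling by total reads (adjusted p 0.224 by limma) or by median-of-ratios factors from expressed genes (0.147), without the variance trend (0.0524), or when either sh-LDB1 library was left out (0.104 and 0.102). The share of ARF4 in the FPKM of the 4 ARF genes was 11.6% ± 0.784 in sh-NC and 49.6% ± 1.03 in sh-LDB1, and that of ARF1 was 62.5% ± 0.468 and 40.4% ± 0.931 (SD, n = 2).

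The regulators of ARF were split as well. GBF1, the exchange factor that activates ARF at the cis-Golgi, went from 15.3 and 15.1 to 38.6 and 39.0 FPKM, a rise past the 2-fold rule (log2 fold change 1.30). ARFGAP1, which stimulates GTP hydrolysis by ARF1, went from 19.1 and 16.6 to 56.7 and 55.8 FPKM (log2 fold change 1.60). ARFGAP2, a GTPase-activating protein that binds the coat, went the other way, from 18.1 and 15.3 to 7.79 and 8.74 FPKM (log2 fold change -0.93, SE 0.103, limma adjusted p 0.00164). This was 49.5% of its control mean in FPKM but short of the 2-fold rule, which is set on the log2(FPKM + 1) scale. ARFGAP3, the close relative of ARFGAP2, rose from 9.87 and 9.71 to 11.5 and 12.4 FPKM. ARFGAP1 and ARFGAP2 were near each other in sh-NC, at 40.3% and 37.6% of the FPKM of the 3 genes, and far apart in sh-LDB1, at 73.5% and 10.8%.

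**Figure D2:**
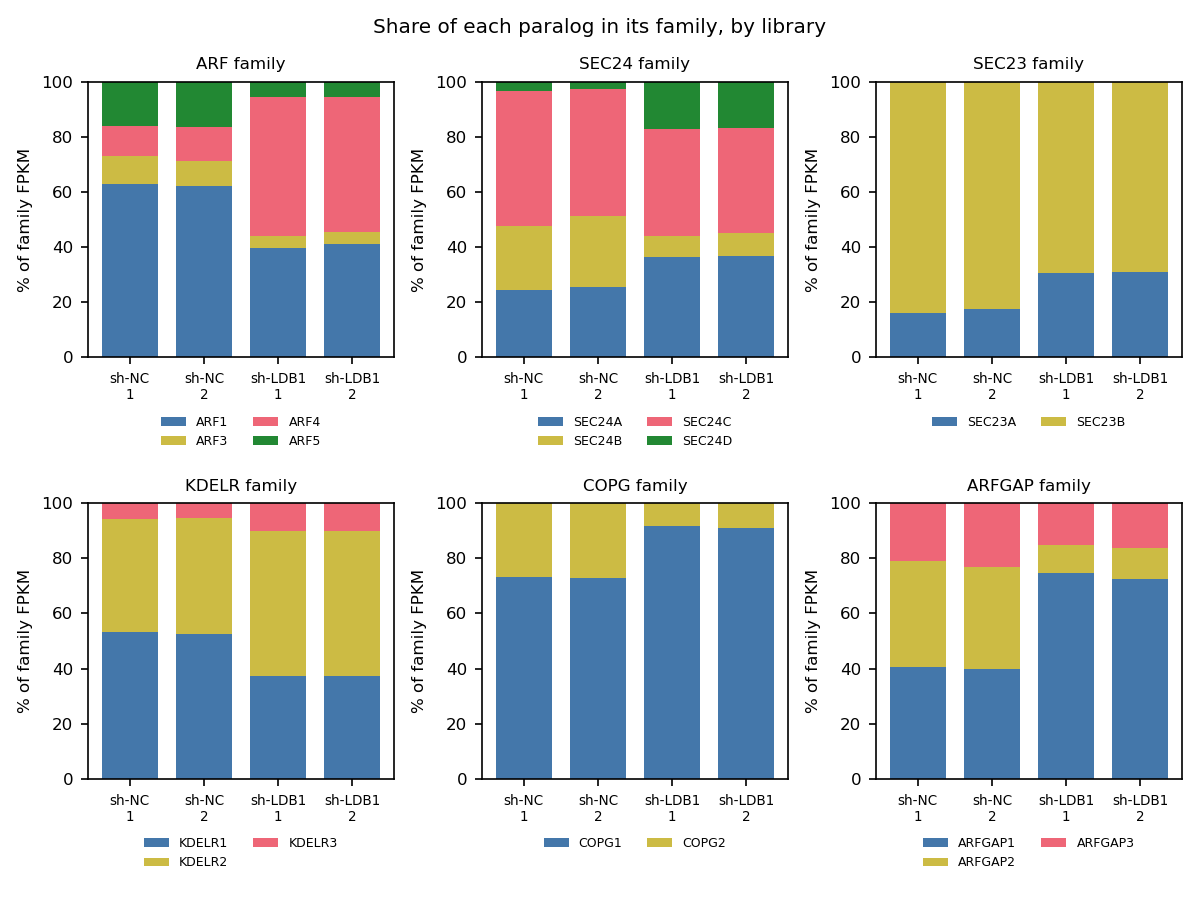
Each bar is 1 library, stacked to 100% of the summed FPKM of a gene family, with 1 colour per paralog. ARF4 fills 11.1% and 12.2% of the sh-NC bars of the ARF family and 50.3% and 48.9% of the sh-LDB1 bars, SEC24D widens and SEC24B narrows, and COPG2 and ARFGAP2 shrink.

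Of the 12 COPII genes, 10 rose and none fell by the limma test, while SEC24B and PREB did not pass it. SEC24D showed the largest ratio in the list. This cargo-binding subunit gene, on chr4:118722823-118838683 of hg38 on the minus strand, was the lowest member in sh-NC at 1.23 and 1.10 FPKM and reached 19.4 and 18.7 FPKM in sh-LDB1, 16.3 times the control mean (log2 fold change 3.21, SE 0.0654, limma adjusted p 6.77e-05). The fewest reads behind its values, 161, were still enough to separate the groups. SEC24A went from 9.09 and 10.2 to 40.7 and 40.7 FPKM (log2 fold change 1.97), and SEC24C from 18.2 and 18.3 to 43.2 and 42.0 FPKM (log2 fold change 1.18). SEC24B was at 8.57 and 10.2 FPKM with sh-NC against 8.60 and 8.97 FPKM with sh-LDB1, the only member with overlapping groups (log2 fold change -0.08, limma adjusted p 0.471). SEC24A and SEC24B, which are close relatives, stood level with sh-NC and far apart with sh-LDB1. Of the SEC24 FPKM, SEC24D took 3.05% ± 0.393 in sh-NC and 17.1% ± 0.275 in sh-LDB1, and SEC24B took 24.4% ± 1.78 and 7.90% ± 0.307 (SD, n = 2).

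The partner subunits rose with them. SEC23A, which activates the GTPase of SAR1, went from 3.61 and 4.04 to 16.2 and 15.8 FPKM (log2 fold change 1.82, SE 0.0670, limma adjusted p 0.000119), and its paralog SEC23B from 19.0 and 18.7 to 36.3 and 35.4 FPKM (log2 fold change 0.89). SEC23B stayed the more abundant form, and the share of SEC23A was 16.8% ± 1.27 and 30.9% ± 0.0998 (SD, n = 2). In the outer cage, SEC31A went from 20.9 and 21.6 to 57.5 and 56.0 FPKM, and SEC13, which also serves the nuclear pore, from 30.4 and 28.0 to 56.6 and 57.05 FPKM. SEC16A, the scaffold of ER exit sites, went from 15.5 and 15.7 to 38.8 and 40.3 FPKM. Of the GTPases that start the coat, SAR1B went from 5.17 and 5.57 to 14.9 and 15.4 FPKM and SAR1A from 14.1 and 14.9 to 25.3 and 24.1 FPKM. PREB, their exchange factor, was at 25.4 and 27.7 FPKM with sh-NC against 29.1 and 29.0 FPKM with sh-LDB1 (log2 fold change 0.12, limma adjusted p 0.115). The GTPases and both layers of the coat thus rose, apart from SEC24B in the inner layer. PREB passed the test with other scalings (adjusted p 0.0173 by limma with total reads and 0.0227 with median-of-ratios factors from expressed genes). Without sh-NC replicate 2 the log2 fold change of PREB was 0.19.

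Cargo receptors had the widest range of log2 fold change among the role groups, from -2.16 for TMED10 to 2.51 for KDELR3. Of these 14 genes, 12 rose and 2 fell. The KDEL receptors, which return escaped ER chaperones from the Golgi, all passed the 2-fold rule. KDELR3 went from 6.44 and 6.22 to 40.5 and 41.0 FPKM (log2 fold change 2.51, SE 0.0455, limma adjusted p 6.77e-05). KDELR2 went from 46.4 and 49.8 to 212.1 and 214.0 FPKM (log2 fold change 2.13), and KDELR1 from 59.8 and 61.5 to 149.5 and 152.0 FPKM (log2 fold change 1.30). The family had a summed level of 115.1 ± 3.43 FPKM with sh-NC against 404.6 ± 3.41 FPKM with sh-LDB1 (SD, n = 2). KDELR1 was the leading form in sh-NC and KDELR2 in sh-LDB1. SURF4, a receptor that exports soluble cargo from the ER, went from 45.7 and 45.9 to 121.7 and 127.6 FPKM (log2 fold change 1.42).

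TMED10 was the one member that fell past the 2-fold rule. It encodes a p24 protein, a type of membrane protein that cycles between ER and Golgi in complexes with its relatives, and lies on chr14:75131469-75176612 of hg38 on the minus strand. TMED10 was at 23.6 and 23.7 FPKM with sh-NC against 4.53 and 4.50 FPKM with sh-LDB1, 19.1% of the control mean (log2 fold change -2.16, SE 0.0469, limma adjusted p 6.93e-05). Its relatives went up. TMED9 went from 86.4 and 73.3 to 185.1 and 185.3 FPKM (log2 fold change 1.21), TMED2 from 53.5 and 51.9 to 82.5 and 80.1 FPKM, and TMED7 from 12.2 and 14.6 to 26.5 and 27.9 FPKM. TMED3, the scarcest of them, rose from 2.13 and 2.20 to 4.05 and 3.74 FPKM. TMED10 made up 13.8% ± 0.710 of the FPKM of the 5 genes in sh-NC and 1.495% ± 0.00174 in sh-LDB1 (SD, n = 2).

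The lectin receptors also parted. LMAN1, which with MCFD2 carries coagulation factors out of the ER, rose from 33.5 and 36.7 to 56.5 and 58.3 FPKM (log2 fold change 0.70), and MCFD2 from 29.9 and 30.8 to 38.6 and 36.8 FPKM (log2 fold change 0.30). LMAN2, a related lectin of the secretory pathway, fell from 83.8 and 80.6 to 41.8 and 43.8 FPKM (log2 fold change -0.93, SE 0.0472, limma adjusted p 0.000205). LMAN1 was below LMAN2 in both sh-NC libraries and above it in both sh-LDB1 libraries. The genes ERGIC1 and ERGIC3 of the compartment between ER and Golgi rose to 1.89 and 1.54 times their control means.

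**Figure D3:**
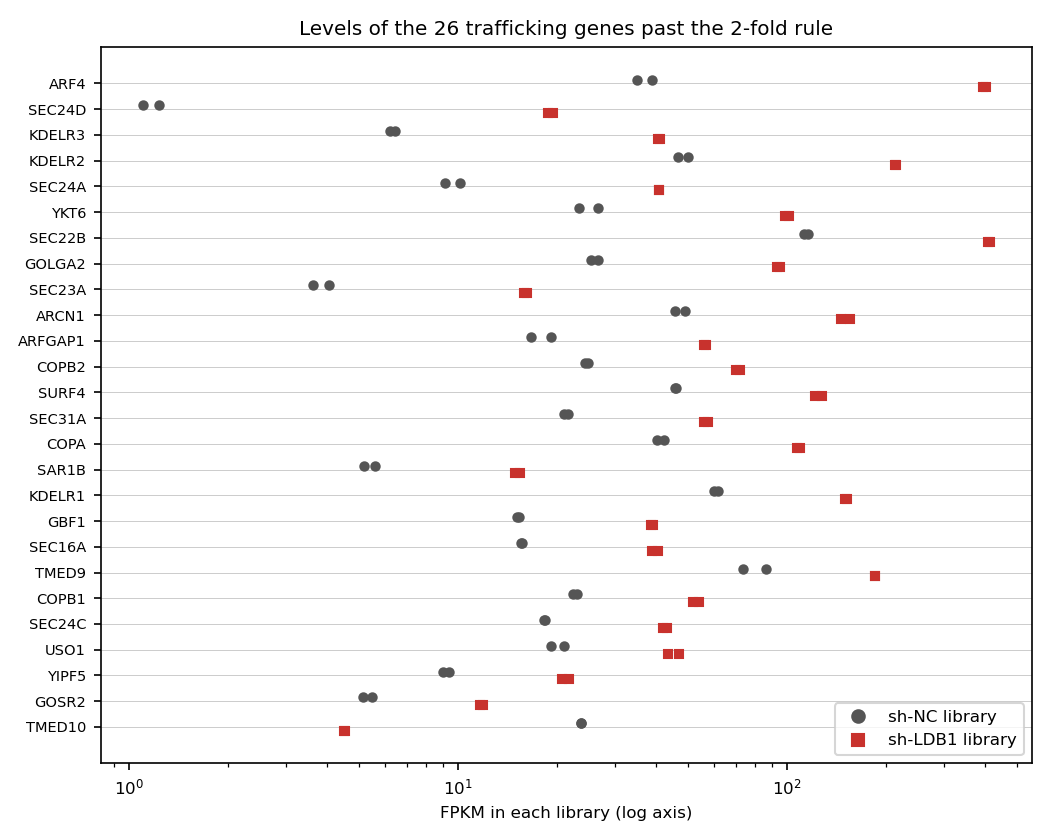
Each row is 1 of the 26 members past the 2-fold rule, with FPKM on a log axis, grey circles for the sh-NC libraries and red squares for the sh-LDB1 libraries. In 25 rows both red squares lie to the right of both grey circles, from GOSR2 at 11.9 and 11.7 FPKM to SEC22B at 412.2 and 407.5 FPKM, and in the TMED10 row they lie to the left.

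Among the 7 genes of the Golgi matrix, tethers and RAB1, 6 rose and none fell. GOLGA2, the cis-Golgi matrix protein that docks vesicles, went from 26.5 and 25.3 to 95.2 and 93.3 FPKM (log2 fold change 1.82, SE 0.0442, limma adjusted p 7.40e-05). USO1, the tether that binds GOLGA2, went from 19.2 and 21.0 to 47.0 and 43.5 FPKM, and YIPF5, a membrane protein of the early Golgi, from 8.97 and 9.34 to 21.7 and 20.7 FPKM. RAB1A, the GTPase that recruits tethers, went from 36.8 and 37.5 to 73.5 and 77.2 FPKM, 2.03 times the control mean. On the log2(FPKM + 1) scale this was just under the 2-fold line. RAB1B, its paralog, was at 49.4 and 44.2 FPKM with sh-NC against 56.6 and 55.7 FPKM with sh-LDB1 (log2 fold change 0.26, limma adjusted p 0.0224). The rise of RAB1B lost its call without either sh-LDB1 library (adjusted p 0.109 and 0.0931 by limma) and with no filter on low values (0.0535). Of the Golgi stacking proteins, GORASP2 rose from 29.3 and 30.1 to 56.6 and 57.8 FPKM. GORASP1 was at 9.03 and 9.78 FPKM with sh-NC against 10.6 and 10.8 FPKM with sh-LDB1 and did not pass the test (limma adjusted p 0.0576, against 0.0127 with total reads).

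All 6 SNARE genes rose, and their summed level had the highest ratio of the role groups, 171.4 ± 1.94 FPKM with sh-NC against 575.0 ± 2.46 FPKM with sh-LDB1 (SD, n = 2), or 3.35 times. SEC22B, a SNARE of ER-derived vesicles, accounted for most of it with 112.0 and 115.9 FPKM with sh-NC against 412.2 and 407.5 FPKM with sh-LDB1 (log2 fold change 1.84, SE 0.0413, limma adjusted p 7.03e-05). YKT6, a lipid-anchored SNARE of the Golgi, went from 26.5 and 23.3 to 101.4 and 98.7 FPKM (log2 fold change 1.97). Both belong to the class that contributes an arginine to the core of the SNARE complex, and both passed the 2-fold rule. The partner SNAREs rose by less. GOSR2 went from 5.47 and 5.12 to 11.9 and 11.7 FPKM, BET1 from 5.10 and 5.18 to 10.5 and 11.6 FPKM, and STX5, the Golgi syntaxin, from 14.5 and 16.6 to 29.1 and 31.7 FPKM. GOSR1 went from 6.49 and 6.63 to 11.6 and 11.9 FPKM.

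**Figure D4:**
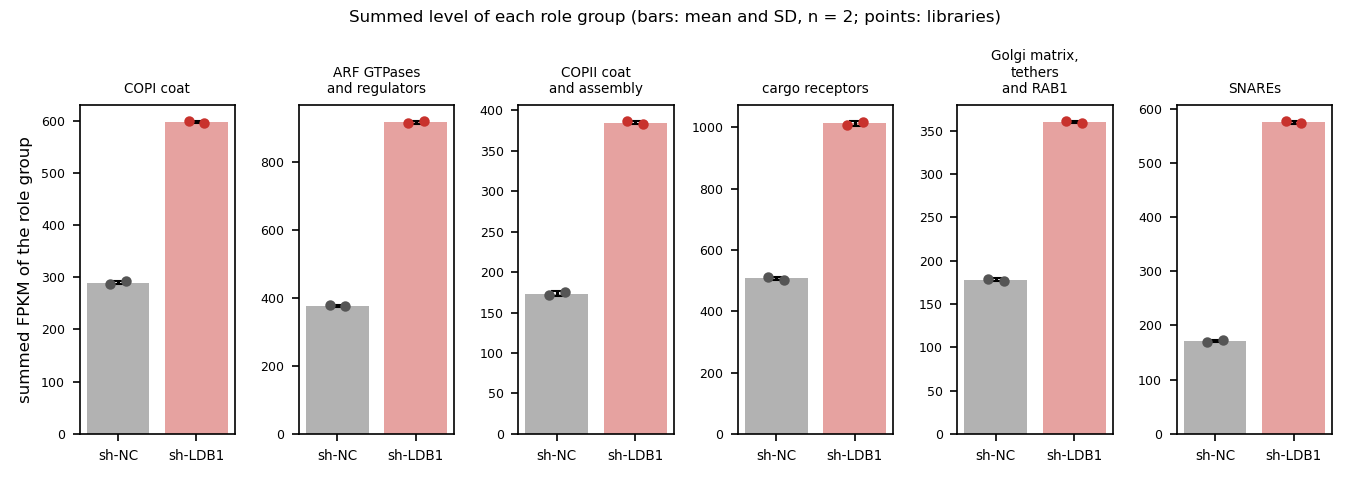
Bars are the mean summed FPKM of each role group in sh-NC and sh-LDB1 with the SD of 2 libraries as error bars, and points are the libraries, on a separate linear axis from 0 in each panel. The ratio of the means runs from 2.00 for the cargo receptors to 3.35 for the SNAREs.

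The 10 members with the TGACGTGG core in the promoter window all rose, with log2 fold changes from 0.71 for ARF1 to 2.51 for KDELR3 and a median of 1.34. Of the 37 members with a window and no core, 27 rose and 5 fell, with a median of 0.76. Of all tested genes with the core, which include these 10 members, 58 of 103 rose (56.3%, median 0.47). The share was 31.8% (median -0.09) for those with a window and no core, which include the other 37. These groups are thus not a background apart from the members, and the motif was chosen with earlier results of these data known. On the wider pathway list described below, 2 of the 3 tested genes with the core rose. The ranges overlapped widely, since YKT6 at 1.97, SEC22B at 1.84, GOLGA2 at 1.82 and ARCN1 at 1.65 were without the core. No window was given for ARF4, ARFGAP1, ERGIC1, KDELR2, RAB1A, SEC24D, TMED9 and USO1. No test was made of this split.

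**Figure D5:**
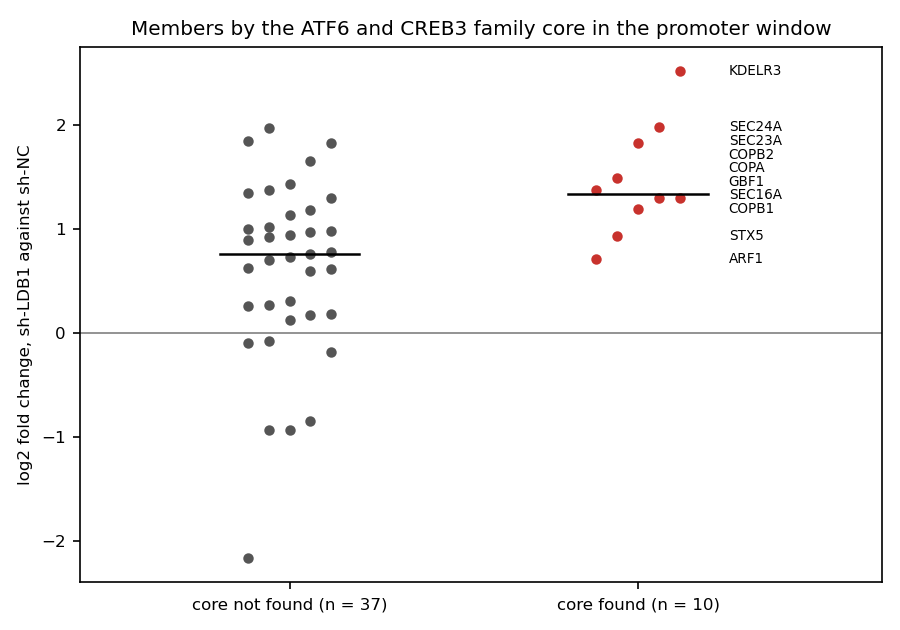
Each point is the log2 fold change of 1 of the 47 members with a RefSeq promoter window, split by whether the window holds the ATF6 and CREB3 family core, with the median as a line. The 10 members with the core, named beside the points, lie between 0.71 and 2.51 with a median of 1.34, and the 37 without it have a median of 0.76 and include the 5 that fell.

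A wider list of 95 genes of the same pathway was read in the same fit, of which 92 had a row and 88 were tested. It too had been chosen with earlier results of these data known, so its shares are a description. Of these 88, 51 (58.0%) rose and 16 (18.2%) fell, with a median log2 fold change of 0.46, against 29.9% and 37.4% of all genes tested. The other RAB and YIP genes had 11 of 14 higher and 1 lower, and the other Golgi coiled-coil proteins 9 of 11 higher and none lower. The TRAPP complex, a multisubunit activator of RAB1 and other RABs, had 5 of 13 higher (38.5%) and 5 lower (38.5%), shares near those of all genes tested. The other SNAREs and SNARE factors, which include the general fusion factors NSF, NAPA and NAPG, had 3 of 10 higher and 5 lower. On the log2(FPKM + 1) scale the largest rises in this list were BLZF1, a golgin, from 7.04 and 7.33 to 38.3 and 37.6 FPKM, and CREB3, an ER-anchored transcription factor freed by cleavage in the Golgi, from 15.9 and 14.8 to 68.3 and 71.7 FPKM. ARL1, a GTPase of the trans-Golgi, went from 13.0 and 12.0 to 52.6 and 48.3 FPKM, and YIF1A, a binding partner of YIPF5, from 35.9 and 35.6 to 134.8 and 136.3 FPKM. There were 4 falls past the 2-fold rule, of which only NBAS stayed past it under scaling by total reads (TRAPPC3 then at -0.98, ARFRP1 at -0.99 and STX6 at -0.95 on the log2 scale). NBAS, a subunit of the tether that receives COPI vesicles at the ER, fell from 20.8 and 21.2 to 5.85 and 6.37 FPKM (log2 fold change -1.63, limma adjusted p 0.000116). TRAPPC3, a core TRAPP subunit, fell from 25.8 and 25.4 to 11.5 and 11.5 FPKM. The falls of ARFRP1, a Golgi ARF-like GTPase, to 39.2% of the control mean and of STX6, a trans-Golgi SNARE, to a log2 fold change of -1.04 completed the set. Without sh-NC replicate 1, ARFRP1 stood at -0.97.

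Some values may hold reads of other genes, because strand and the handling of multiple matches in counting are not given in the sources used here. In GENCODE 44, 6 members (ARF5, COPB2, GORASP1, RAB1A, TMED7 and YKT6) shared over 10% of their exon bases with another protein-coding gene of the table, up to 34.1% in COPB2 with MRPS22. Pseudogenes named after a member were annotated for 12 members, and 14 of these pseudogenes had values in the table, at most 16.5 FPKM for those of SEC22B, 6.22 FPKM for those of GOLGA2 and 0.904 FPKM for the rest.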

How the data were processed

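RNA-seq was analysed in 2 sh-NC and 2 sh-LDB1 libraries of cells labelled NB4, grouped by sample title. Libraries had been made from total RNA with an Illumina TruSeq kit. The authors filtered reads, mapped them with HISAT2 2.0.5 to hg38 per the submitters' notes, and deposited 1 table of FPKM per gene and library. The counting tool, annotation and use of strand are not given in the sources used here. The study used a count model. Since the deposited unit is FPKM, limma on the log scale was used here, with voom on recovered reads as an alternative.

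The deposited FPKM are whole multiples of the value of 1 read. Library totals behind the FPKM came from single-transcript genes at GENCODE 44 lengths. They were 16182674 and 14746656 (sh-NC) against 16021191 and 15131588 (sh-LDB1). Gene lengths were then fitted, 85.1% of them within 10% of GENCODE 44. The reads recovered with them summed to 16852935 and 15444640 (sh-NC) against 15463353 and 14520592 (sh-LDB1). Of the genes, 98.5% came out as whole reads at a tolerance of 0.002 reads. Lengths were fitted to give whole numbers and genes with no reads counted as whole, so this share is partly built in. The median of ratios was 1.0083 in each library, so the authors' values already held that scaling. Of 28412 genes, 28193 were in GENCODE 44.

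The 13300 genes averaging 1 FPKM or more were tested as log2(FPKM + 1) with limma 3.58.1 in R 4.3.3 (eBayes with trend, no block) and Benjamini-Hochberg adjustment over all of them, which understates changes of low genes. Called means an adjusted p-value below 0.05, and the 2-fold rule adds a fold above 2 or below 0.5. On simulated FPKM of 13151 genes, 184 of 200 changed genes were called in the right direction. Of the 12951 unchanged genes, 15 were called. How well calls hold where 67.4% of genes are called, as in these libraries, was not tested. Replicates correlated at 0.985 and 0.984 across genes and differed by more than sampling noise (chi-square per gene 4.53 and 2.24). Summaries used Python 3.11.15, pandas 2.3.3 and numpy 2.4.6.

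The members, gene lists and motifs were chosen with earlier results of these data known. Values in every library were due for LDB1, for members past the 2-fold rule, for the 3 most abundant and 3 most changed members of each role group and for paralogs of listed families, and for the 4 largest rises and falls of the wider list. The other members shown per library (COPE, COPZ1, PREB, BET1, MCFD2) were added after their values were seen. GORASP and GOSR count among the families. Paralog shares, group sums and promoter motifs were described without a test. MPO, CTSG, GP9 and MS4A1, also on the marker lists, had no row under these names and so were not analysed.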

Additional observations from a re-analysis of the deposited data

How the results depend on the processing

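Over LDB1, the 55 members and 8 genes of the wider list, 740 refits of single genes kept the side of the threshold, 10 lost a call and 13 gained one. The lost calls were on ARF5, RAB1B and ARFGAP3 (adjusted p 0.0566 without sh-NC replicate 2 and 0.0909 without sh-LDB1 replicate 2), and the gained ones on ARF3, COPZ1 (0.0376 without sh-NC replicate 1), GORASP1 and PREB. The sign changed for 2 genes that were not called, COPZ1 (0.0173 with total reads, 0.00014 with median-of-ratios factors from genes of at least 1 FPKM) and SEC24B (0.0248 and 0.0091 likewise, and from -0.19 to 0.031 with 1 library left out). Higher and lower members numbered 45 and 5 with the replicate block and 45 and 4 without the variance trend. The same counts were 48 and 4 both under scaling by total reads and with those factors, which moved all genes by 0.10 and 0.09 on the log2 scale. These scalings gave 33 and 32 members up past the 2-fold rule, and over all genes 4587 higher and 4349 lower, and 4498 and 4427, so that the higher genes became the larger group. Members down past the 2-fold rule numbered 2 with a pseudocount of 0.1 and 2 with voom on recovered reads, where SEC24D (4.02) also led ARF4 (3.44). The median change of the members was 1.02 with that pseudocount, 1.09 with total reads, 1.07 with those factors and 1.02 with voom. With 1 library left out, where the lone library is taken to vary like the other group, the members numbered 43 to 46 higher and 4 to 6 lower, 25 to 29 and 1 to 2 past the 2-fold rule (2 without sh-NC replicate 2 or sh-LDB1 replicate 2), with a median of 0.94 to 1.01. The wider list gave 47 to 53 higher and 12 to 16 lower and all genes 3140 to 3697 higher and 4067 to 4561 lower. Against a null of a 1.2-fold change, 42 members were higher and 4 lower, and against a 2-fold change 19 and 1. The replicate numbers do not pair the libraries as far as the data show (correlation of same-numbered deviations 0.0196 over 13300 genes, 2 pairs). With 2 libraries a group, and 161 reads behind the scarcest member, changes near the threshold such as ARF3, ARF5 and GORASP1 are not settled at this depth.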
